A study of Mus musculus with 2 samples.

Results

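Among the leukocytes of tumours in mice, 8 genes of blood clotting, clot lysis and platelet factors were followed across monocytes, macrophages and neutrophils: Pf4, Thbs1, F13a1, F10, F7, F3, Plaur and Plau. They are 8 of the 32285 genes counted, found by an exact match of the gene symbol. Each symbol occurred in 1 row. The genes were picked with their counts in these libraries already seen, so their levels and the differences between the libraries are a description and carry no test. CD45+ cells, that is all leukocytes, had been sorted from tumours of C57BL/6 mice after digestion with collagenase and DNase and lysis of red cells, and were run as single cells with a 10x 5′ kit. There was 1 library of genotype WT and 1 of genotype Ythdf2 KO, so no error between animals can be given, and every interval below is a 95% interval for counting error alone. Ythdf2 encodes a protein that binds RNA carrying the m6A mark and hastens its decay. The sample labels speak of Ythdf2-KO tumours and the series text of cKO mice, and the cells that lacked Ythdf2, the kind of tumour, the age of the mice and the number of mice in each library are not given in the sources used here. Ythdf2 itself was at 42.8 CPM (UMIs of the gene per 1000000 UMIs of the cells named) in WT monocytes and macrophages and at 40.1 in Ythdf2 KO, and at 62.8 and 45.8 in T cells. These counts do not check the labels, since the deleted part of the gene is not named.

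Clotting begins when tissue factor, the product of F3, is exposed to blood and binds factor VII, the product of F7. The pair activates factor X, the product of F10, which leads to thrombin and fibrin, and factor XIII, whose A subunit is the product of F13a1, links the fibrin strands. Urokinase, the product of Plau, bound to its receptor Plaur, turns plasminogen into plasmin, which dissolves fibrin and other matrix. Platelets release platelet factor 4 (Pf4), a heparin-binding chemokine, and thrombospondin 1 (Thbs1), an adhesive matrix protein that can activate TGF-beta. Monocytes and macrophages make several of these proteins outside blood vessels.

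The barcodes kept numbered 20415 in WT and 15844 in Ythdf2 KO, with medians of 5674 and 5753 unique molecular identifiers (UMIs, each marking 1 captured RNA molecule). Ptprc, which encodes CD45, had a UMI in 88.7% and 87.4% of them. Monocytes and macrophages were barcodes with at least 2 UMIs of a marker list that included Csf1r, Fcgr1, Ccr2 and Adgre1 and at most 1 UMI of each marker list of another lineage. Those with at least 5 UMIs of C1qa, C1qb and C1qc were called C1q macrophages and were divided into Arg1 cells (at least 2 Arg1 UMIs), then Mrc1 cells (at least 2 Mrc1 UMIs), then others. Of the rest, patrolling monocytes had at least 2 UMIs of Ace, Adgre4 and Treml4, and classical monocytes at least 3 of Ly6c2, Vcan, Ccr2 and Chil3, divided by the presence of an Mgst1 UMI. Barcodes meeting none of these gates were kept as remaining cells. Neutrophils had at least 3 UMIs of Csf3r, Cxcr2, Retnlg, Ly6g, Mmp8 and Mmp9 and at least 10 of S100a8 and S100a9, and at most 2 of macrophage genes. None of the 8 genes served in a gate.

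These 8 types held 9352 WT and 7511 Ythdf2 KO barcodes. WT had 984 Arg1, 286 Mrc1 and 2548 other C1q macrophages, 206 patrolling monocytes, 1106 classical monocytes with Mgst1 and 2932 without, 783 remaining cells and 507 neutrophils. Ythdf2 KO had 299, 391, 1742, 590, 994, 2084, 536 and 875 in that order. The neutrophil marker list summed to 187563 and 127802 CPM in neutrophils and to 481 and 625 in monocytes and macrophages. The remaining cells were shallow, with medians of 2274 and 2270.5 UMIs. Besides Cxcl3, Mmp12 and Inhba their leading genes included Nkg7, a gene of cytotoxic lymphocytes, so they are given no cell type name. Gzmb (904 CPM) and Prf1 were also among them in WT, and Gzma (719 CPM), Arg1 (608 CPM) and Pf4 in Ythdf2 KO. The mixture of cells in this type may thus differ between the libraries, which was not tested. The libraries shared 101 barcode sequences, 41 of the WT and 44 of the Ythdf2 KO barcodes in the 8 types. The types held 40.9% of the Pf4 UMIs of all kept barcodes in WT and 40.0% in Ythdf2 KO, since barcodes with UMIs of another lineage were left out.

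The genes lie on 7 chromosomes of the mouse genome, and some are neighbours. Pf4 (ENSMUSG00000029373, chr5:90772435-90773383, GRCm38, plus strand) lies 2372 bases from Ppbp, another platelet chemokine. F7 (ENSMUSG00000031443, chr8:13026034-13035809, plus strand) and F10 (ENSMUSG00000031444, chr8:13037308-13056676, plus strand) lie head to tail, 1499 bases apart. F3 (ENSMUSG00000028128) is at chr3:121723537-121735048, Plaur (ENSMUSG00000046223) at chr7:24462484-24475968, Plau (ENSMUSG00000021822) at chr14:20836660-20843385 and Thbs1 (ENSMUSG00000040152) at chr2:118111876-118127133, all on the plus strand. F13a1 (ENSMUSG00000039109) is at chr13:36867178-37050244 on the minus strand. Gm29233 overlaps Thbs1, and Gm49144 and Gm30489 overlap F13a1, on the opposite strand, and the strand setting of the counting is not given, so the counts of those 2 genes could include antisense reads.

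The 250 bases before the start site are shown for Pf4, which had the largest ratio between the libraries in any type, for the neighbours F7 and F10, which had unlike patterns, and for F3 and Plaur, whose levels were highest in neutrophils. The sequences are from RefSeq (GRCm38.p6), and RefSeq promoters were matched for 6 of the 8 genes. The windows are chr5:90772185-90772434 for Pf4, chr8:13025784-13026033 for F7, chr8:13037058-13037307 for F10, chr3:121723287-121723536 for F3 and chr7:24462233-24462482 for Plaur, all on the plus strand. Capitals mark matches on either strand to 6 motifs. They are GAGGAA, a core that ETS family factors such as PU.1 bind, the GATA motif spelled AGATAA, and the AP-1 motif spelled TGANTCA. The others are ACGTG, the core of hypoxia response elements, the C/EBP motif spelled TTGCNNAA, and the TATA box spelled TATAAA.
Pf4: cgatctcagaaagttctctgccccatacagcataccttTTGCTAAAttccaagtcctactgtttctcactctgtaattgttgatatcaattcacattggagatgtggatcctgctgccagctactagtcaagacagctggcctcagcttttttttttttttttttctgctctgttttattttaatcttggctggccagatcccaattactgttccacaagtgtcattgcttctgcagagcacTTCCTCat
F7: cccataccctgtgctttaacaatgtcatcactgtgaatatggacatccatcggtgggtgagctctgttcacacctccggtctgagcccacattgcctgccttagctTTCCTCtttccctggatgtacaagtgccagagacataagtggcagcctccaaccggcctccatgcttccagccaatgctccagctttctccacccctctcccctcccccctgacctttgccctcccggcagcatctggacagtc
F10: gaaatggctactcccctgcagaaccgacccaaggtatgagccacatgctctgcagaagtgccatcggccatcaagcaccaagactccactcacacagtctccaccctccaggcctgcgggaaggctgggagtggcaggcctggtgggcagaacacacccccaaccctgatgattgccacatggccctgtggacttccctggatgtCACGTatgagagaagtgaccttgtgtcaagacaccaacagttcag
F3: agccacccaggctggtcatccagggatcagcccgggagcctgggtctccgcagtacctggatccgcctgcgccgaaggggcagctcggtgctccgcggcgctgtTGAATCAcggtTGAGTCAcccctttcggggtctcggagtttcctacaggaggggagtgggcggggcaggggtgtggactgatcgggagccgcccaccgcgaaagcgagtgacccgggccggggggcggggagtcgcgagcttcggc
Plaur: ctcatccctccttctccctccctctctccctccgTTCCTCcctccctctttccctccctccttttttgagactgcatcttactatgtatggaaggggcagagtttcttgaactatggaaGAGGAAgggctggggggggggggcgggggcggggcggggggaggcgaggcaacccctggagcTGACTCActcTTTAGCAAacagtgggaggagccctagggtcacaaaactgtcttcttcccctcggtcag
Pf4 held TTCCTC, the other strand of GAGGAA, 8 bases before the start, and a TTGCNNAA match at 212 bases. F3 held TGANTCA at 146 and 135 bases, and Plaur held it at 69 bases beside a TTGCNNAA match at 59. Of 32851 RefSeq promoter windows of this length, 6.75% held TGANTCA, 9.56% TTGCNNAA, 23.3% GAGGAA and 16.6% ACGTG. F7 held 1 match to GAGGAA and F10 1 match to ACGTG, so the neighbours shared none of the 6 motifs in these windows. A match describes the letters and is not a measured binding site.

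**Figure D1:**
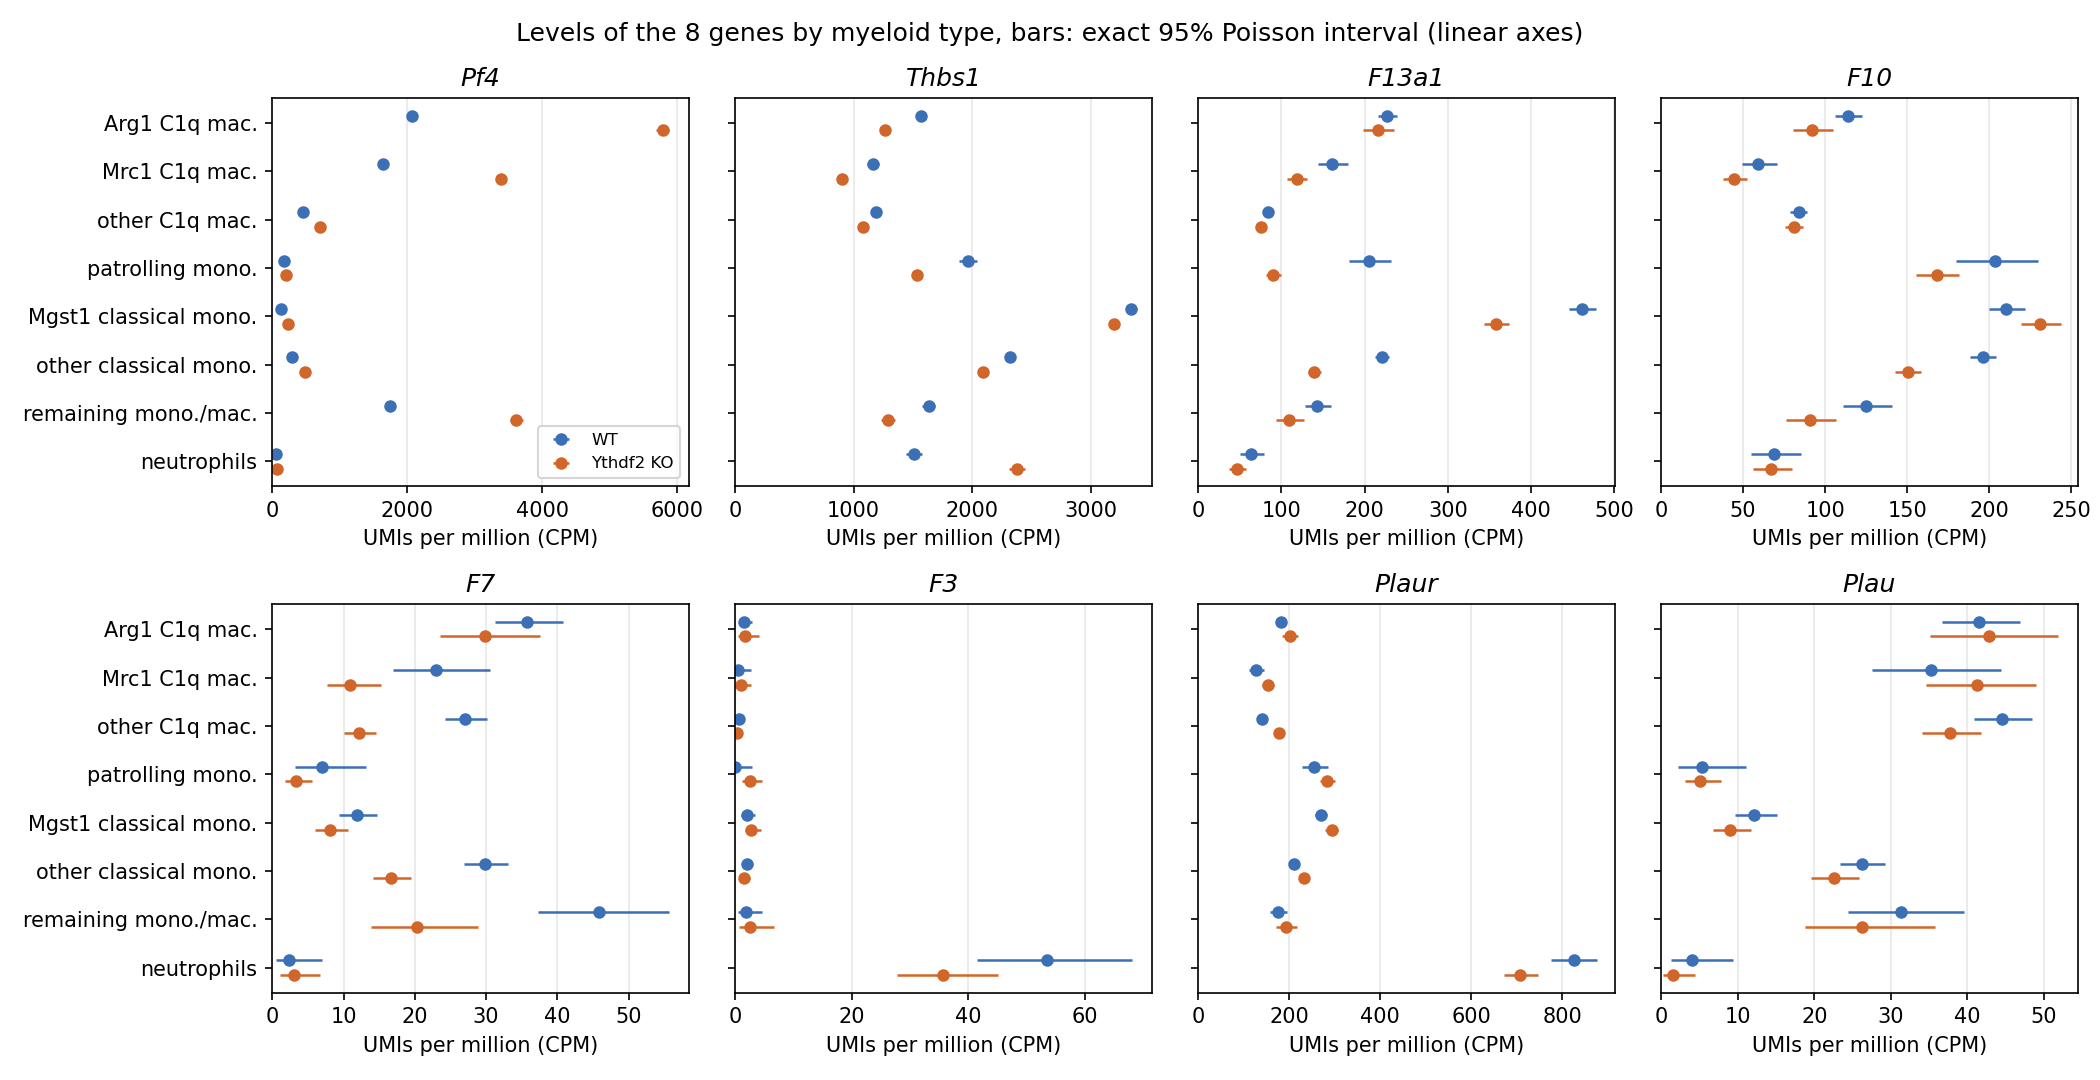
Level of each of the 8 genes in the 8 types, in CPM on a linear axis (different for each gene), in the WT and the Ythdf2 KO library; bars are exact 95% Poisson intervals for counting error. Pf4 reached 5785 in Ythdf2 KO Arg1 C1q macrophages, and among these types F3 reached at most 2.79 outside neutrophils.

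Pf4 was highest in Arg1 C1q macrophages in both libraries, followed by the remaining cells and the Mrc1 C1q macrophages, and was higher in each of them in Ythdf2 KO. In Arg1 C1q macrophages it was at 2074 CPM of the type's UMIs (interval 2039 to 2110) in WT and 5785 (5691 to 5881) in Ythdf2 KO. In Mrc1 C1q macrophages it was at 1643 (1587 to 1699) and 3398 (3334 to 3462), and in the other C1q macrophages at 460 (448 to 472) and 712 (695 to 728). The intervals of the libraries did not overlap in any of these 3 types. The ratios of Ythdf2 KO to WT were 2.79 (2.72 to 2.86), 2.07 (1.99 to 2.15) and 1.55 (1.49 to 1.60). The Arg1 type also holds cells with Mrc1 UMIs, since the Arg1 gate came first. Among C1q macrophages with an Arg1 UMI, 570 WT and 271 Ythdf2 KO cells had an Mrc1 UMI. These were at 2755 and 6151 CPM, a ratio of 2.23 (2.18 to 2.29). The 846 and 177 cells without were at 865 and 1865 CPM, a ratio of 2.16 (2.05 to 2.27). The part of this make-up in the ratio of 2.79 was not tested.

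In monocytes the Pf4 level was lower and rested on few cells. Classical monocytes with Mgst1 were at 127 CPM (119 to 136) in WT and 239 (226 to 251) in Ythdf2 KO, and those without Mgst1 at 296 (287 to 306) and 488 (473 to 502). The 5 highest cells held 50.1% and 41.6% of the Pf4 UMIs of the classical monocytes with Mgst1. Patrolling monocytes were at 171 (149 to 195) and 202 (188 to 216), but in WT a single cell gave 168 of the 222 UMIs and in Ythdf2 KO 1 cell gave 251 of 801. Neutrophils were at 63.2 (50 to 78.8) and 64.2 (53.5 to 76.5), where the intervals overlapped. In WT 1 neutrophil gave 30 of the 79 UMIs. Without the Pf4 UMIs of the 5 highest cells in each library, the neutrophil values were 32.0 and 53.5 CPM. The remaining cells, at 1748 and 3618 CPM, ranked between the Arg1 and the Mrc1 C1q macrophages. In WT their interval overlapped that of the Mrc1 C1q macrophages, and no other neighbours in the order of Pf4 levels overlapped in either library.

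The share of cells with a Pf4 UMI moved with the level in Arg1 C1q macrophages, though not in every type. With each cell thinned to 1000 UMIs, it was 47.5% (44.3 to 50.7) in WT and 68.9% (63.3 to 74.1) in Ythdf2 KO Arg1 C1q macrophages. Without thinning it was 67.9% and 86.3%, at median depths of 5510.5 and 7576 UMIs. Free RNA puts stray UMIs into droplets, and T, NK and B cells gave thinned shares of 1.72%, 2.03% and 4.10% in WT and 2.09%, 4.20% and 3.69% in Ythdf2 KO. Patrolling monocytes, at 2.44% and 5.08%, Mgst1 monocytes, at 4.07% and 4.53%, and neutrophils, at 3.80% and 6.16%, lay close to those shares. The share of the Mgst1 monocytes thus hardly differed, although their levels were 127 and 239 CPM. The C1q types and the remaining cells, at 20.6% to 52.6% in WT and 24.6% to 68.9% in Ythdf2 KO, lay above the shares of T, NK and B cells. So did the classical monocytes without Mgst1, at 9.05% and 12.7%.

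Pf4 was concentrated in a minority of cells. Among all monocytes and macrophages, 743 WT cells (8.40%) and 766 Ythdf2 KO cells (11.5%) had at least 10 Pf4 UMIs, and they held 81.1% and 91.2% of the Pf4 UMIs. The median Arg1 C1q macrophage held 3 Pf4 UMIs in WT and 18 in Ythdf2 KO, and the highest cell held 343 and 480. Of the cells with at least 10 Pf4 UMIs, 60.4% in WT and 72.1% in Ythdf2 KO had a UMI of Mrc1, the mannose receptor, against 9.23% and 8.71% of the cells with no Pf4 UMI. A UMI of Arg1, which encodes arginase 1, was present in 66.9% and 43.6% of them, against 19.4% and 4.76%. These shares are without thinning, and the groups differed in depth. The medians were 5474 and 6427 UMIs in cells with at least 10 Pf4 UMIs, against 4198 and 4668 in those with none.

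The monocytes and macrophages were also split on Mrc1 and Arg1 UMIs, a split chosen after the values had been seen. Cells with both UMIs were at 2767 CPM in WT and 6296 in Ythdf2 KO, a ratio of 2.28 (2.23 to 2.33). Cells with Mrc1 alone were at 1085 and 2355 (2.17), and cells with Arg1 alone at 792 and 1741 (2.20). Cells with neither were at 182 and 218, a ratio of 1.2 over a pool of types, and they were 63.2% of the WT and 74.2% of the Ythdf2 KO cells. The ratio of these cells was 1.19 in the pool of C1q macrophages, from 352 and 418 CPM. In the pool of classical monocytes it was 1.71 (1.57 to 1.87), from 61.6 and 105 CPM. In the remaining cells it was 1.99 (1.78 to 2.22). In patrolling monocytes it was 2.402 (1.52 to 3.98), from 21 and 175 UMIs at 20.1 and 48.3 CPM. T, NK and B cells were at 10.0 to 44.4 CPM in WT and 25.5 to 40.0 in Ythdf2 KO, so no direction is read for the patrolling monocytes. Split on Mrc1 alone, cells without an Mrc1 UMI were pooled at 338 CPM in both libraries, a ratio of 0.999 (0.972 to 1.03). The level of those cells was higher in Ythdf2 KO in the pool of C1q macrophages (1.18), the pool of classical monocytes (1.19) and the remaining cells (1.24). In patrolling monocytes the ratio was 1.64, from 36 and 184 UMIs at 30.3 and 49.8 CPM, again near the level of the T, NK and B cells. The mixtures behind the pooled value were unlike: cells with Arg1 and no Mrc1 UMI made up 18.9% of WT and 5.39% of Ythdf2 KO monocytes and macrophages.

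**Figure D2:**
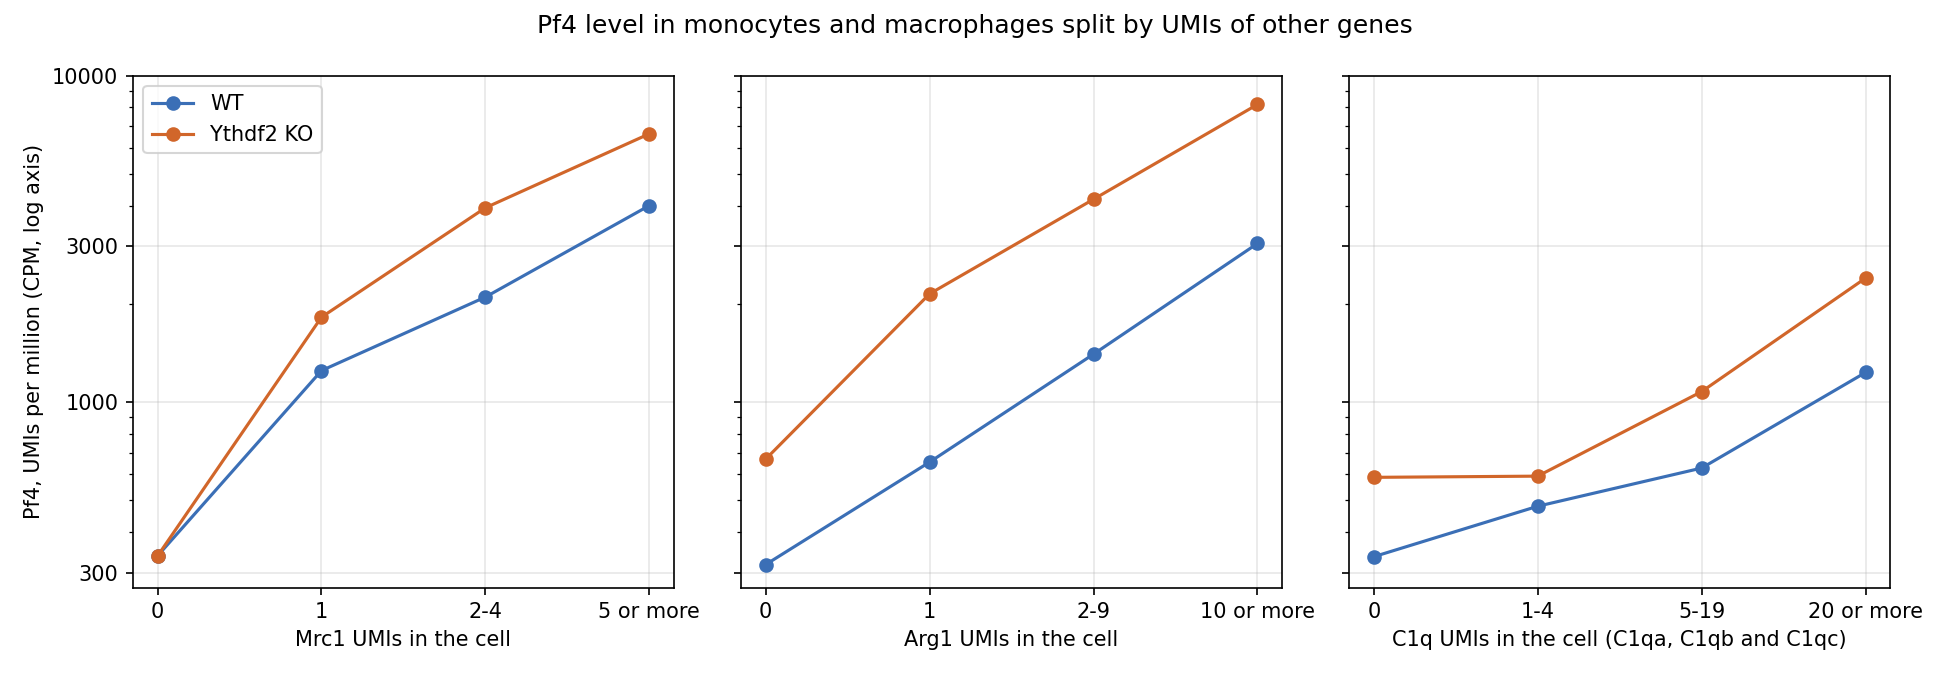
Pf4 level (CPM, log axis) in monocytes and macrophages binned by the number of Mrc1, Arg1 or C1q UMIs in the cell, for the WT and the Ythdf2 KO library; each point is the level over all cells of a bin in 1 library, lines join the bins and no error bars are drawn. Pf4 was higher in cells with more Mrc1 UMIs, from 338 at none, pooled over types, to 4001 in WT and 6640 in Ythdf2 KO at 5 or more.

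Over all monocytes and macrophages Pf4 was at 711 CPM (703 to 719) in WT and 1219 (1208 to 1231) in Ythdf2 KO, a ratio of 1.71 (1.69 to 1.74). The make-up of the types also differed: Arg1 C1q macrophages were 10.5% of the cells of the 8 types in WT and 3.98% in Ythdf2 KO. With the Ythdf2 KO types weighted by the WT shares the level was 1577 and the ratio 2.22. The Arg1 C1q macrophages held 42.5% of the Pf4 UMIs of the 8 types in WT and 32.0% in Ythdf2 KO, and the Mrc1 C1q macrophages 10.9% and 24.3%. Pf4 stood at 732 and 1532 CPM in cells with at least 2 Nos2 UMIs and at 414 and 542 in cells with at least 2 Cxcl9 UMIs.

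Pf4 is also a platelet gene, so 10 platelet and megakaryocyte markers were read beside it. They summed to 6.59 CPM in WT and 8.98 in Ythdf2 KO monocytes and macrophages, nearly all from Ppbp (5.62 and 7.70). Tubb1 and Gp1bb were at 0 in both libraries, Gp9 and Gp1ba at 0 in WT, and Treml1 at 0 in Ythdf2 KO. A platelet marker UMI was found in 96 WT cells (1.09%) and 111 Ythdf2 KO cells (1.67%), which held 8.19% and 14.4% of the Pf4 UMIs. Without those cells the pooled values were 662 and 1066 CPM, a ratio of 1.61, and the ratio in Arg1 C1q macrophages was 2.66. In 3 places their removal mattered more. The ratio in the other C1q macrophages became 1.44 and that in classical monocytes without Mgst1 1.496, both under 1.5-fold. In patrolling monocytes the direction turned, to 173 CPM in WT and 89.3 in Ythdf2 KO, since 4 Ythdf2 KO cells had held 56.3% of the UMIs. The patrolling ratio, 1.18 with all cells, was also unsettled by other choices, at 3.65 with every gate minimum doubled and 2.74 with no UMI of a second lineage allowed, so no direction is read from it. With no UMI of a second lineage allowed, the ratio in classical monocytes without Mgst1 was 1.47.

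A difference was counted where a gene had at least 20 UMIs over both libraries, at least 10 CPM in either and a ratio of at least 1.5 in either direction. Of the 8 genes, 7 reached these minimums in all monocytes and macrophages, with Pf4 higher and F7 lower in Ythdf2 KO. Of the 7010 genes that reached them there, 0.785% were at least 1.5-fold higher and 2.13% at least 1.5-fold lower. The median log2 ratio was -0.15 over the 7 genes and -0.04 over all genes. Pf4 was the gene past 1.5-fold upward in the Arg1, Mrc1 and other C1q macrophages, in both kinds of classical monocyte and in the remaining cells. The share of all genes that high was 2.54% in Arg1 and 2.76% in Mrc1 C1q macrophages, 0.978% in other C1q macrophages, 1.9% in classical monocytes with Mgst1, 0.696% in those without and 4.99% in the remaining cells. In patrolling monocytes and neutrophils, where Pf4 stayed under 1.5-fold, 5.89% and 9.86% of all genes were that high. Pooling gave 1 gene higher, Pf4, and 1 lower, F7, in C1q macrophages (0.964% and 2.04% of all genes), in classical monocytes (0.528% and 1.93%), in cells with Nos2 UMIs (4.34% and 5.82%) and over all 8 types (0.915% and 2.13%). In cells with Cxcl9 UMIs none of the 8 genes was higher and F7 and Plau were lower, against 2.13% and 4.35% of all genes. In Arg1 C1q macrophages and Mgst1 monocytes none was at least 1.5-fold lower, against 4.35% and 2.32% of all genes. Since the genes were chosen on these libraries, nothing is read from these counts.

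**Figure D3:**
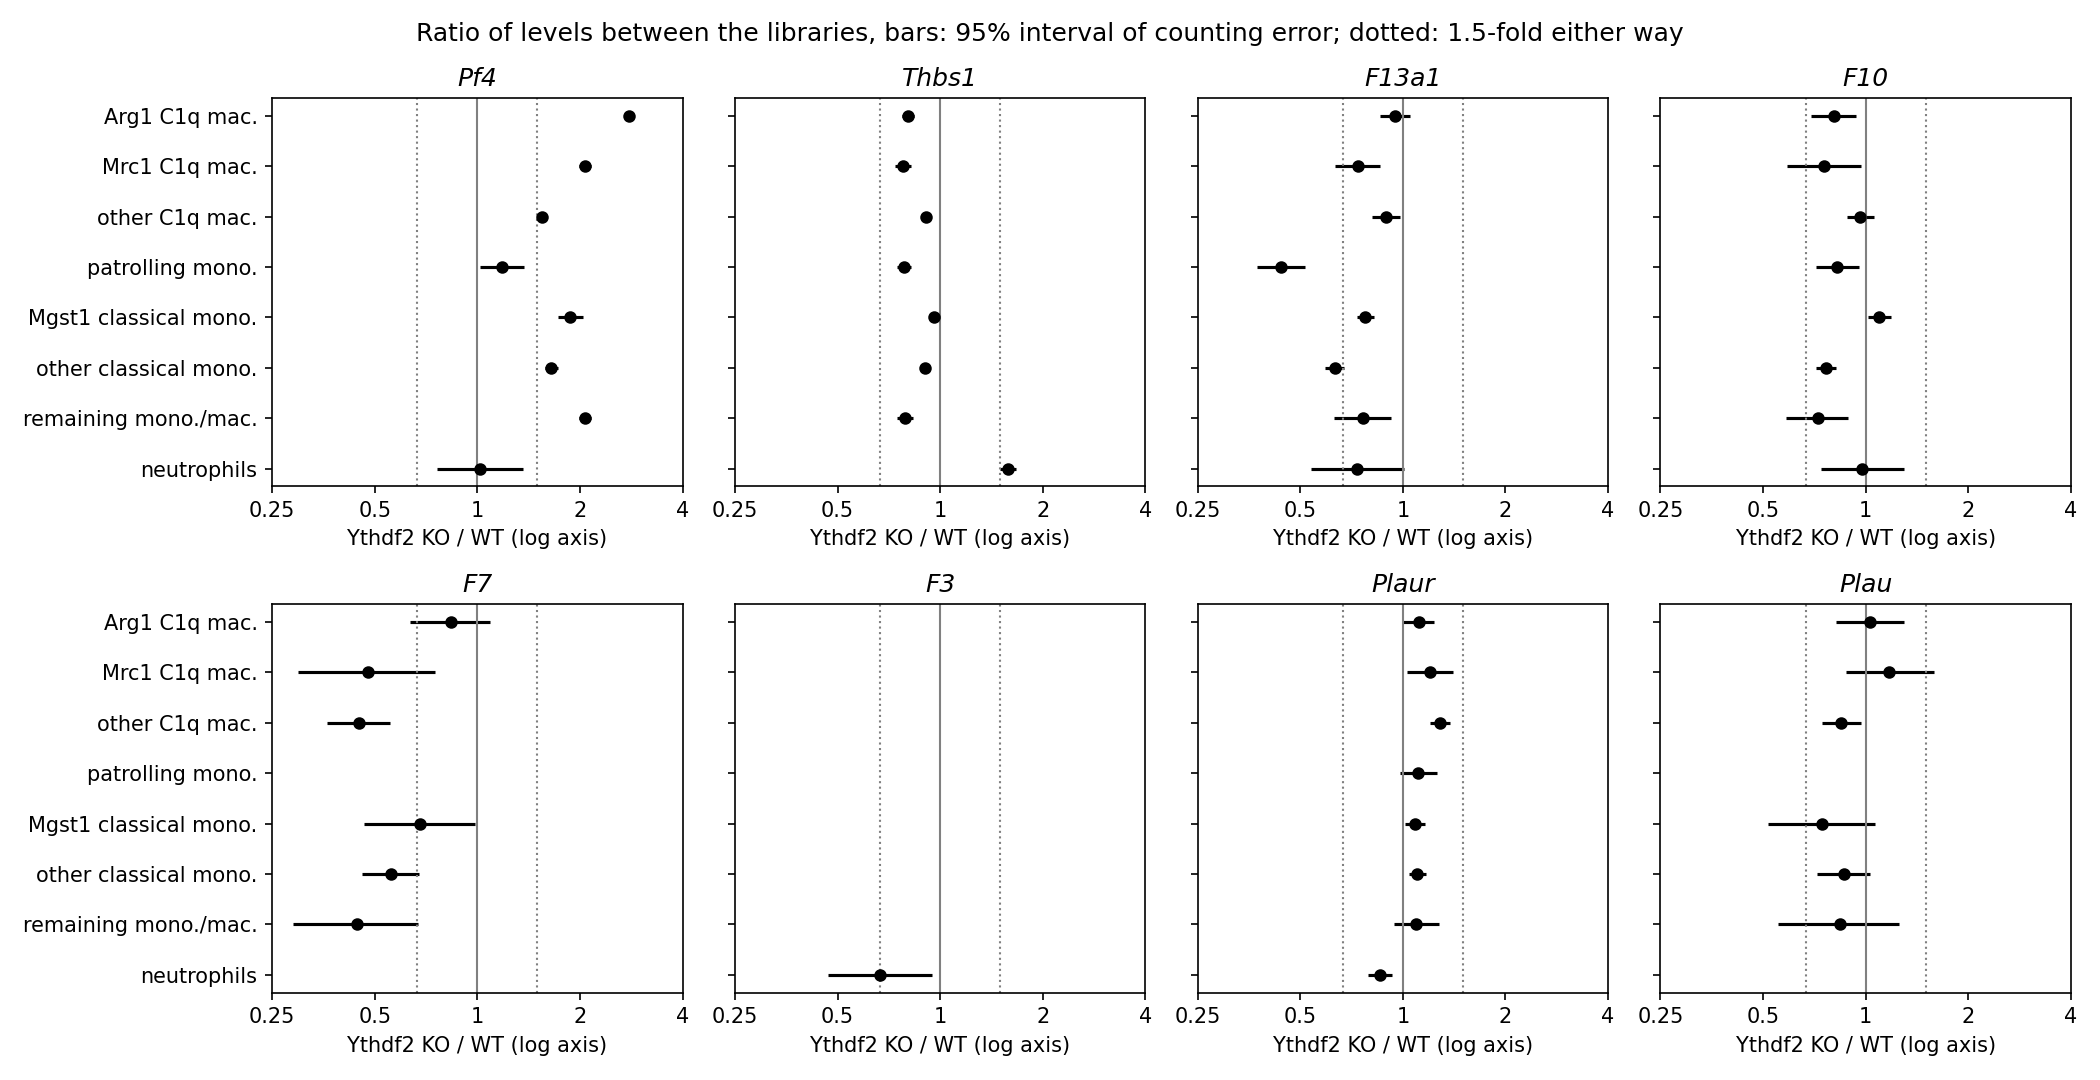
Ratio of the level in Ythdf2 KO to that in WT (log axis) for each gene and type that reached the count minimums, with 95% intervals for counting error; dotted lines mark 1.5-fold in each direction. Pf4 lies past 1.5-fold upward in 6 of the 8 types, and Thbs1 does so in neutrophils at 1.58.

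Thbs1 was highest in classical monocytes and was widely carried, with a UMI in 80.0% of WT and 72.4% of Ythdf2 KO monocytes and macrophages. Classical monocytes with Mgst1 were at 3345 CPM in WT and 3198 in Ythdf2 KO, and those without Mgst1 at 2317 and 2095. Patrolling monocytes were at 1966 and 1536, remaining cells at 1634 and 1289, Arg1 C1q macrophages at 1566 and 1263, other C1q macrophages at 1188 and 1082 and Mrc1 C1q macrophages at 1163 and 905. In WT the intervals of the remaining and the Arg1 cells overlapped, as did those of the other and the Mrc1 C1q macrophages. All 7 monocyte and macrophage types were lower in Ythdf2 KO, with ratios from 0.778 in Mrc1 C1q macrophages to 0.956 in Mgst1 monocytes, none past 1.5-fold. The share of monocytes and macrophages with a Thbs1 UMI after thinning was 60.5% in WT and 52.7% in Ythdf2 KO, against 2.16% to 3.17% in WT T, NK and B cells.

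Neutrophils went the other way. Their Thbs1 level was 1508 CPM (1440 to 1577) in WT and 2379 (2311 to 2448) in Ythdf2 KO, a ratio of 1.58 (1.495 to 1.67). The thinned share of neutrophils with a Thbs1 UMI was 43.4% (39.0 to 47.9) and 52.5% (49.1 to 55.9). Of the 5388 genes that reached the minimums in neutrophils, 9.86% were at least 1.5-fold higher, so a ratio of this size was common there. The neutrophil libraries also differed in their summed neutrophil markers, given above, in red cell markers (0 against 247 CPM) and in median depth (2110 against 1851 UMIs), and the part of these in the Thbs1 difference was not tested.

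F13a1 was highest in classical monocytes with Mgst1, and its values were lower in Ythdf2 KO in all 8 types, though in Arg1 C1q macrophages (ratio 0.95, 0.859 to 1.05) and neutrophils (0.734, 0.537 to 1.005) the interval included no difference. With the gate minimums doubled the neutrophil ratio was 0.478. Mgst1 monocytes were at 461 CPM (445 to 478) in WT and 358 (344 to 374) in Ythdf2 KO. Arg1 C1q macrophages were at 227 and 216 and classical monocytes without Mgst1 at 221 and 139, followed by patrolling monocytes at 205 and 90.2. Mrc1 C1q macrophages were at 161 and 119, remaining cells at 143 and 110, other C1q macrophages at 84.3 and 75.1 and neutrophils at 63.2 and 46.4. The neutrophil values rested on few cells, with an F13a1 UMI in 23 of 507 and 24 of 875. The highest of these cells held 12 of the 79 UMIs in WT and 17 of 91 in Ythdf2 KO. In WT the interval of the Arg1 C1q macrophages overlapped that of the classical monocytes without Mgst1, which overlapped that of the patrolling monocytes. In patrolling monocytes the values were 205 (181 to 231) and 90.2 (81.1 to 100), a ratio of 0.440 (0.374 to 0.517) that was 0.271 with the gate minimums doubled. In that type 6.5% of all genes were at least 1.5-fold lower. In classical monocytes without Mgst1 the ratio was 0.630 (0.589 to 0.674), where that share was 2.44%. Pooled over monocytes and macrophages it was 0.730 (0.706 to 0.755), short of 1.5-fold. T and NK cells held 6 and 12 F13a1 UMIs in WT and 1 and 5 in Ythdf2 KO, under 3 CPM throughout.

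F13a1 cut across the macrophage types as well as following the monocytes. In monocytes and macrophages it stood at 301 CPM in WT and 200 in Ythdf2 KO with no C1q UMI and at 127 and 107 with 20 or more. It was also high at the other end, at 421 and 332 in cells with at least 10 Arg1 UMIs and at 451 and 250 in cells with at least 5 Mrc1 UMIs.

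Like Thbs1, F10 was highest in classical monocytes with Mgst1. These were at 211 CPM in WT and 231 in Ythdf2 KO, patrolling monocytes at 204 and 168 and classical monocytes without Mgst1 at 196 and 150, with overlapping intervals between neighbours of these 3 types in WT. Remaining cells were at 125 and 90.5, Arg1 C1q macrophages at 114 and 92.1, other C1q macrophages at 83.8 and 80.8, neutrophils at 68.8 and 67.3 and Mrc1 C1q macrophages at 59.2 and 44.7. Ratios ran from 0.723 in the remaining cells to 1.10 (1.02 to 1.18) in Mgst1 monocytes, and none passed 1.5-fold. Some did under other settings: the remaining cells were at 0.635 with the gate minimums doubled and 0.663 after thinning, the Mrc1 C1q macrophages at 0.639 with no UMI of a second lineage allowed, and the Arg1 C1q macrophages at 0.621 after thinning but 1.05 with no UMI of a second lineage allowed. F10 was lower in cells with more C1q UMIs, at 195 and 181 CPM with none and 74.9 and 62.9 with 20 or more. In cells with at least 2 Nos2 UMIs it stood at 314 and 240.

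F7, the neighbour of F10 on chromosome 8, had another order. Remaining cells were at 45.8 CPM in WT and 20.3 in Ythdf2 KO, Arg1 C1q macrophages at 35.8 and 29.9, classical monocytes without Mgst1 at 29.8 and 16.6, other C1q macrophages at 27.1 and 12.2 and Mrc1 C1q macrophages at 23.0 and 10.9. Classical monocytes with Mgst1, where F10 was highest, were at 11.8 and 8.04. Patrolling monocytes held 9 and 13 UMIs and neutrophils 3 and 6, too few to compare. No F7 UMI was seen in 469 WT and 339 Ythdf2 KO T cells, which by the limit of 3 cells allows a share of cells with a UMI of up to 0.640% and 0.885%.

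Over all monocytes and macrophages F7 was at 27.0 CPM (25.4 to 28.6) in WT and 13.1 (11.9 to 14.3) in Ythdf2 KO, a ratio of 0.485 (0.435 to 0.540). A UMI was found in 9.34% and 5.29% of the cells. F7 was at least 1.5-fold lower in Mrc1 C1q macrophages (0.476), other C1q macrophages (0.448), remaining cells (0.444) and classical monocytes without Mgst1 (0.558). In the remaining cells it was 0.191 after thinning. Those types had 7.19%, 2.92%, 8.75% and 2.44% of all genes that low. In Arg1 C1q macrophages the ratio was 0.835 (0.634 to 1.09), an interval that includes no difference, and it was 0.365 with cells thinned to 1000 UMIs. In Mgst1 monocytes it was 0.680, short of 1.5-fold, and 0.459 with the gate minimums doubled. With the Ythdf2 KO types at the WT shares the pooled ratio was 0.574, so the difference was smaller but past 1.5-fold when the make-up was held fixed. In cells with no Arg1 UMI F7 was at 22.1 and 10.7 CPM, and in cells with at least 10 at 46.8 and 34.3.

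F3 was at its highest in neutrophils. They were at 53.6 CPM (41.6 to 68.1) in WT and 35.7 (27.8 to 45.1) in Ythdf2 KO, from 67 and 70 UMIs, a ratio of 0.666 (0.469 to 0.945). The intervals of the levels overlapped, the ratio sat at the 1.5-fold limit and was 0.670 without cells holding a platelet marker UMI, and 7.91% of all genes were at least 1.5-fold lower in neutrophils. A UMI was found in 8.48% and 5.37% of neutrophils. In the 7 monocyte and macrophage types F3 ran from 0 to 2.02 CPM in WT and from 0.395 to 2.79 in Ythdf2 KO, and T cells were at 0.842 and 3.13. Cells with at least 2 Nos2 UMIs were at 5.87 (3.59 to 9.07) and 1.83 (0.377 to 5.34), from 20 and 3 F3 UMIs. B cells were at 2.78 and 6.45, from 1 and 5. No UMI was seen in the 206 WT patrolling monocytes, which by the same limit allows up to 1.46% of cells with a UMI. Neutrophils were 5.42% and 11.6% of the cells of the 8 types and held 51.9% and 55.6% of the F3 UMIs of these types. The 8 types held only 42.6% and 26.4% of the F3 UMIs of all kept barcodes.

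Plaur was in every type and highest in neutrophils, at 824 CPM (775 to 876) in WT and 708 (671 to 746) in Ythdf2 KO, a ratio of 0.858 (0.791 to 0.931). The thinned share of neutrophils with a Plaur UMI was 51.0% and 44.8%. The values of the 7 other types were higher in Ythdf2 KO, none past 1.5-fold. Among these the intervals of the levels were apart only in the other C1q macrophages and the classical monocytes without Mgst1. A ratio interval can exclude no difference even where the intervals of the levels overlap. Mgst1 monocytes were at 270 and 293, patrolling monocytes at 255 and 283, classical monocytes without Mgst1 at 211 and 233, Arg1 C1q macrophages at 181 and 202 and remaining cells at 176 and 193. The other C1q macrophages, at 139 and 179, had the highest ratio of the 8 types, 1.28, and the Mrc1 C1q macrophages, at 127 and 153, followed with 1.2. B cells carried 75.0 and 124 CPM, and T and NK cells 7.47 to 16.8.

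Plau, whose product binds Plaur, was highest in C1q macrophages, where Plaur was low. The other C1q macrophages were at 44.5 CPM in WT and 37.7 in Ythdf2 KO, Arg1 C1q macrophages at 41.5 and 42.8 and Mrc1 C1q macrophages at 35.2 and 41.3, with overlapping intervals between neighbours. Remaining cells were at 31.3 and 26.2, classical monocytes without Mgst1 at 26.2 and 22.6 and Mgst1 monocytes at 12.1 and 9.03. Patrolling monocytes held 7 and 20 UMIs and neutrophils 5 and 3. Over all monocytes and macrophages the ratio was 0.815 (0.750 to 0.886). In cells with at least 2 Cxcl9 UMIs Plau was at 47.7 and 30.7, a ratio of 0.644 (0.526 to 0.788), where 4.35% of all genes were at least 1.5-fold lower. Plau was higher in cells with more C1q UMIs, at 20.8 and 14.3 CPM with none and 43.7 and 41.1 with 20 or more.

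**Figure D4:**
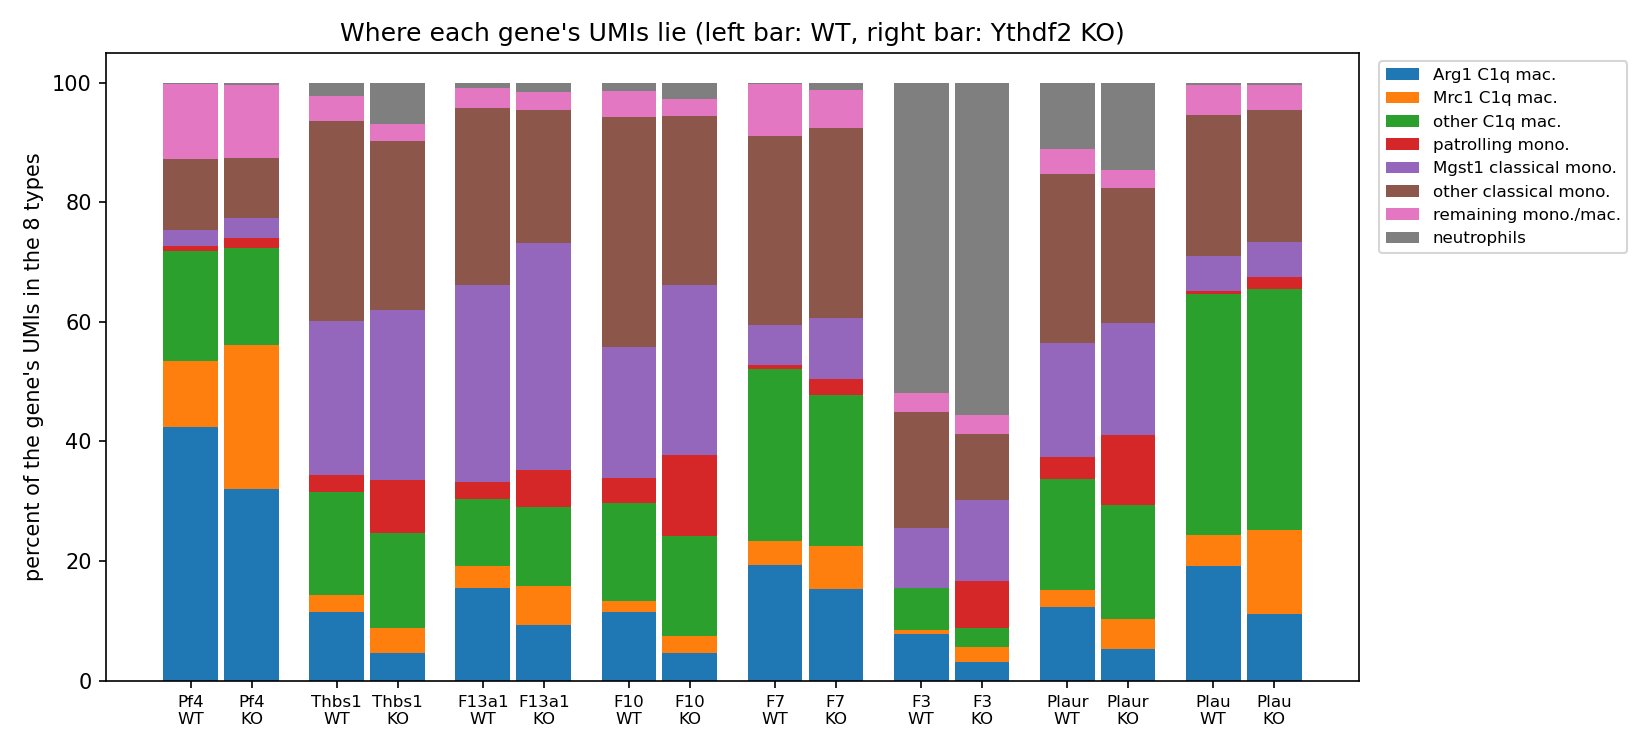
Share of each gene's UMIs (percent of its UMIs in the 8 types, stacked) that came from each type, in the WT and the Ythdf2 KO library. Arg1 C1q macrophages gave 42.5% of the WT and 32.0% of the Ythdf2 KO Pf4 UMIs, and neutrophils gave 51.9% and 55.6% of the F3 UMIs.

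Which genes were read in the same cell was counted in pools of types, the 3 C1q macrophage types together and both classical monocyte types together. Since these types differ in several of the genes, the shares include differences between types. In WT the Arg1 C1q macrophages had a Pf4 UMI in 47.5% and an F13a1 UMI in 16% of cells, against 20.6% and 5.50% in the other C1q macrophages, and Mgst1 monocytes had them in 4.07% and 31.6%, against 9.05% and 15.5% in classical monocytes without Mgst1. All these shares, and those that follow, are of cells thinned to 1000 UMIs. In C1q macrophages an F13a1 UMI was found in 14% (12.1 to 16.2) of WT cells with a Pf4 UMI and 6.32% (5.42 to 7.31) of those without, and in 10.0% (8.10 to 12.2) and 5.61% (4.51 to 6.88) in Ythdf2 KO. In classical monocytes the order was the other way, at 15.4% (11.5 to 19.9) with and 20.4% (19.1 to 21.7) without a Pf4 UMI in WT, intervals that overlapped, and 12.4% and 15.7% in Ythdf2 KO. F7 was found in 6.86% (4.30 to 10.3) of WT classical monocytes with a Pf4 UMI and 1.93% of those without, against 1.96% and 1.17% in Ythdf2 KO.

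Cells with an F10 UMI more often held a Thbs1 UMI. A Thbs1 UMI was present in 70.6% of WT C1q macrophages with an F10 UMI and 52.3% of those without, and in 56.4% and 40.6% in Ythdf2 KO. In classical monocytes the shares were 79.6% and 66.1% in WT and 76.7% and 61.5% in Ythdf2 KO. An F10 UMI and a Plau UMI were seldom in the same C1q macrophage, in 3 of 262 WT cells with F10, or 1.15% (0.237 to 3.31), against 4.67% (3.99 to 5.42) of those without. In Ythdf2 KO it was 1 of 133 cells, 0.752% (0.0190 to 4.12), against 3.99% (3.22 to 4.88), where the intervals overlapped. In neutrophils the share with Thbs1 differed little by Plaur, at 43.5% of WT cells with Plaur and 43.3% without, and 53.2% and 51.9% in Ythdf2 KO.

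**Figure D5:**
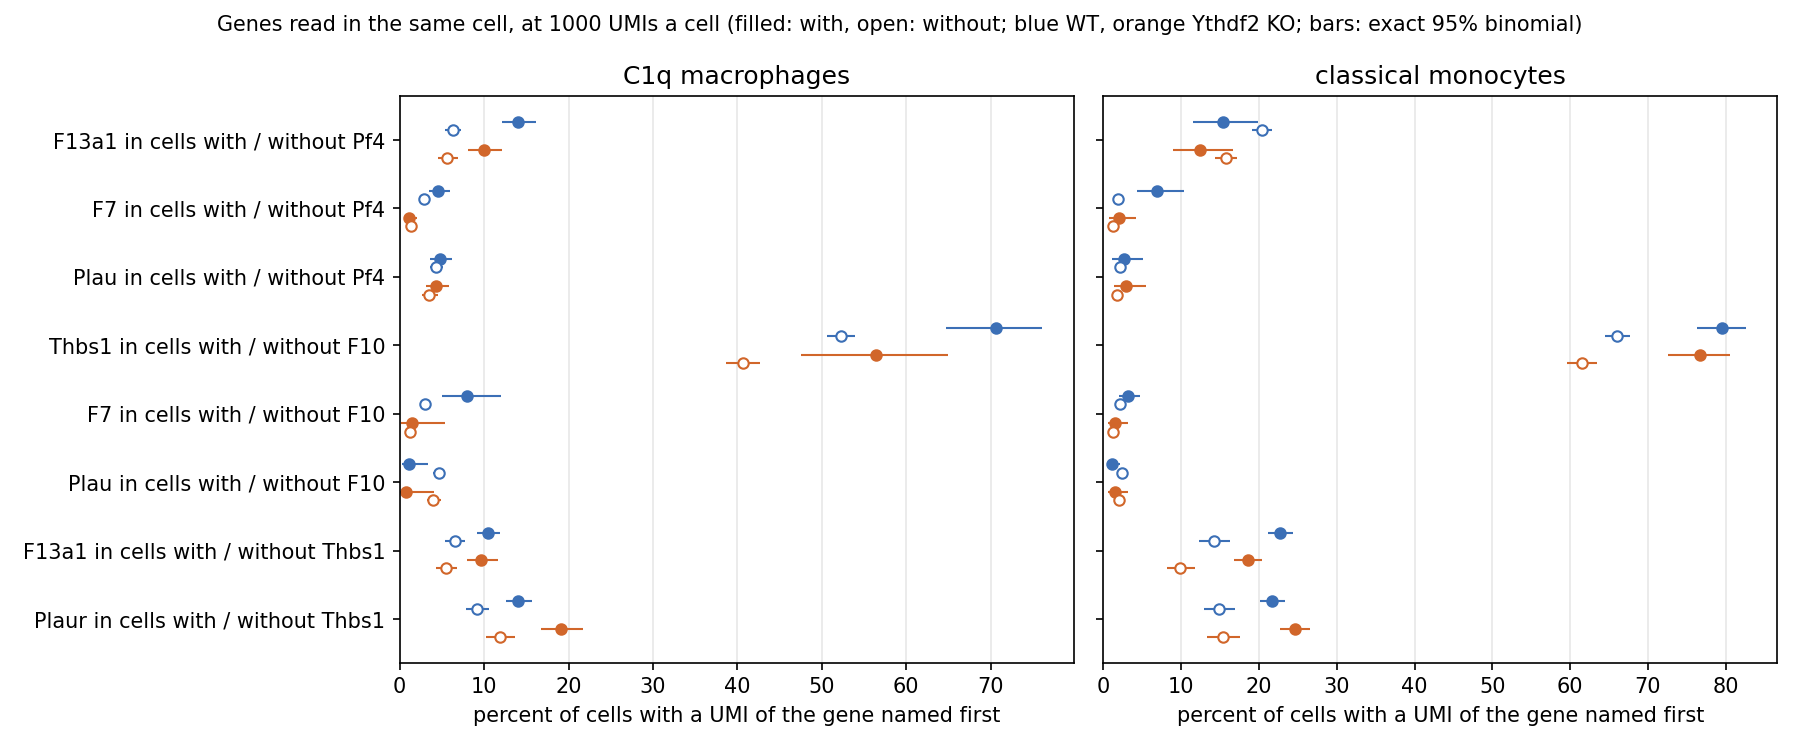
Share of cells (percent, each cell thinned to 1000 UMIs) with a UMI of a gene among cells with (filled) and without (open) a UMI of another gene, in C1q macrophages and classical monocytes of each library; bars are exact 95% binomial intervals. F13a1 lies higher beside Pf4 in C1q macrophages (14% against 6.32% in WT) and lower in classical monocytes (15.4% against 20.4%).

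Across the 8 types of both libraries, 16 points that share libraries and depth, the levels of F3 and Plaur ran together (Pearson r of log2(CPM + 1) 0.899), as did F7 and Plau (0.870), Pf4 and Plau (0.832) and F10 and Thbs1 (0.766). Plau and Plaur ran opposite (-0.877). Among the 8 types F3 was at most 2.79 CPM outside neutrophils, against 53.6 and 35.7 in them, and Plaur at most 293, against 824 and 708. The correlations of F3, here and below, thus rest mainly on the neutrophil points. Among 8513 genes, those most like Pf4 were Vat1 (0.977), Ctsl (0.960), which encodes the lysosomal protease cathepsin L, and Slc48a1 (0.955), a haem transporter. Most like Thbs1 were Sik3 (0.908), Morrbid (0.907) and Emilin2 (0.894). F13a1 was followed by Fam102b (0.901), Fn1 (0.899), which encodes fibronectin, and Adora3 (0.866), and F10 by Thbd (0.914), which encodes thrombomodulin, Vamp4 (0.913) and Apaf1 (0.904). For F7 they were Plekhm2 (0.957), Apba3 (0.955) and Tpi1 (0.954), a glycolytic enzyme, and for F3 Nlrp3 (0.960), an inflammasome sensor, March7 (0.959) and Trim12c (0.957). Plaur was followed by Pygl (0.984), Clec4e (0.981) and Acta2 (0.978), and Plau by Ms4a7 (0.980), Tmem171 (0.978) and Slc37a2 (0.976). These are descriptions over few points, and no p is given.

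The other genes of clotting, fibrinolysis and their receptors were taken from a list of 56. Of these, 22 reached the minimums in all monocytes and macrophages, and 1 was at least 1.5-fold higher and 1 at least 1.5-fold lower in Ythdf2 KO, against 0.785% and 2.13% of all genes. Their median log2 ratio was -0.02, against -0.04 over all genes. Serpinb2, an inhibitor of urokinase, was at 10.0 CPM in WT and 15.3 in Ythdf2 KO (ratio 1.52, 1.34 to 1.73), but its ratio was 1.03 (0.860 to 1.23) in classical monocytes. In neutrophils it was lower, at 12.8 and 5.10 CPM from 16 and 10 UMIs (0.398, 0.162 to 0.933), and Itgav, an integrin subunit, was at 10.4 and 18.4 (1.76, 0.914 to 3.63), where 7.91% of all genes were at least 1.5-fold lower and 9.86% higher. Tgm2, a tissue transglutaminase related to factor XIII, was at 357 and 190 (0.533, 0.518 to 0.549), and its ratio was 0.548 in C1q macrophages, 0.495 in classical monocytes and 0.557 in patrolling monocytes, where 2.04%, 1.93% and 6.5% of all genes were at least 1.5-fold lower.

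By role, the listed clotting factors were low. F5, a cofactor of factor X, was at 11.4 and 9.88 CPM, Vkorc1 and Vkorc1l1, which recycle vitamin K, at 10.3 and 11.1 and at 10.6 and 11, and 3 of the 10 listed in that group reached the minimums. Among 13 inhibitors of clotting 3 did, with Anxa5, which covers exposed phospholipid, at 458 and 460, and thrombomodulin (Thbd) at 14.3 and 14.9 and protein S (Pros1) at 8.60 and 10.0. None of the 4 thrombin-type receptors did. Among 11 genes of fibrinolysis 5 did, including S100a10 (1513 and 1730) and Anxa2 (914 and 987), which together bind plasminogen at the cell surface, and Eno1 (264 and 244), a glycolytic enzyme that also binds it. Of 8 leukocyte receptors 5 did, with the integrin chains Itgam at 430 and 410 and Itgb2 at 244 and 227 and Lrp1, a receptor that takes up protease complexes, at 270 and 198 (0.733). Of 8 partners of thrombospondin and Pf4 5 did, with serglycin (Srgn), the proteoglycan that holds Pf4 in granules, at 2925 and 2661 and Cd47, a thrombospondin receptor, at 552 and 542 and the syndecan Sdc4 at 306 and 261.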

How the data were processed

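The data were 10x single-cell libraries of sorted CD45+ tumour cells, 1 of genotype WT and 1 of genotype Ythdf2 KO. The values are unnormalized UMI counts as deposited, made by the authors with Cell Ranger, version 6.1.1 per the file headers and 5.0.1 per the submitters' processing notes, which also name Seurat 4.0.4 and mm10. The number of mice behind each library is not given.

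Barcodes were dropped below 200 genes, below 500 UMIs or above 10% mitochondrial UMIs, and types were gated on marker UMIs in the order given above, with no doublet caller. UMIs were summed per type and library and divided by the summed total (CPM). Levels have exact Poisson intervals, shares exact Clopper-Pearson intervals and ratios exact conditional binomial intervals, all for counting error at 95%. A share at 0 is given the limit of 3 counts over the number of cells instead of its Clopper-Pearson bound. With 1 library per genotype no test between genotypes was possible and no p-value is given. Cells of fewer than 1000 UMIs were left out where cells were thinned. The 8 genes and all lists were chosen with earlier results of these data known. Named beside them are the listed pathway genes at least 1.5-fold apart or among the 3 highest of their group, and the 3 genes most correlated with each. Some listed genes are not reported here. Alternatives varied the gates, filters, scaling and fold. Coordinates are from GENCODE (GRCm38) and promoters from RefSeq. The scripts were tested on simulated data. Intervals came from scipy 1.17.1 and figures from matplotlib 3.10.9, under Python 3.11.15. Scrublet, an alternative, was run through scanpy 1.11.5.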

Additional observations from a re-analysis of the deposited data

Results flagged for a closer look

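Thbs1 moved in opposite directions in neutrophils and in the other types. Its ratio of Ythdf2 KO to WT was 1.58 in neutrophils, against 0.806 in Arg1, 0.778 in Mrc1 and 0.911 in other C1q macrophages, 0.781 in patrolling monocytes, 0.956 in classical monocytes with Mgst1, 0.904 in those without and 0.789 in the remaining cells. The difference between the types was not tested, since there was 1 library per genotype.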

How the results depend on the processing

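The Pf4 ratio over all monocytes and macrophages, 1.71, was 1.55 with no UMI of a second lineage allowed, 1.61 without cells holding a platelet marker UMI, 1.76 with median-ratio scaling, 1.63 as a mean over cells, 1.63 after thinning and 2.22 with the types at WT shares. It stayed between 1.70 and 1.74 with the minimums doubled, a mitochondrial limit of 5%, the 8% highest Scrublet scores removed, shared barcode sequences removed, Ace left out of the patrolling gate, or mitochondrial and ribosomal genes left out of the totals. At a fold limit of 2, 0 genes were higher and 1 lower, and at the smaller limit tried 2 genes were lower. Over the 74 ratios of a gene in a type, 821 recalculations kept the direction in 804, the side of 1.5-fold in 788, and moved by over 1.5 times in 11. The levels were less steady: of 1332 recalculated levels, 358 lay outside the counting interval of the main value. Pf4 in patrolling monocytes ran from 0.515 without platelet marker cells to 3.65 with doubled minimums. Thbs1 in neutrophils ran from 1.53 to 1.79, and F3 there from 0.610 to 0.672, across the 1.5-fold limit. F7 in all monocytes and macrophages ran from 0.364 to 0.574. The cause of these shifts was not tested. F3 outside neutrophils and F7 and Plau in patrolling monocytes and neutrophils rest on few UMIs. No paired analysis was possible because each genotype has 1 library.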
